A study of Mus musculus with 9 samples.

Results

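The genes described here encode the machinery of DNA replication and S phase. They number 45 of the 54232 genes counted in each library, and were chosen by name, with Ensembl identifiers matched to mouse symbols. The rule sets no threshold on measured values, although the list was drawn up with earlier results of these data known. They were sorted into 8 roles, which are origin recognition and licensing, the MCM helicase ring, helicase activation, the DNA polymerases and primase, the sliding clamp and its loader, Okazaki fragment and single strand handling, nucleotide supply, and chromatin assembly and maintenance. Their RNA was measured in mouse cochlear ducts at embryonic day 14.5 (E14.5) in 3 WT embryos, 3 embryos heterozygous for the Prdm16 cGT allele and 3 null embryos with that allele on both chromosomes. The cGT allele is a gene trap, a constitutive insertion that interrupts Prdm16, a zinc finger transcriptional regulator, in every tissue rather than in the cochlea alone. Each library held the microdissected ducts of both inner ears of a single embryo, and 3 littermates were used for each genotype. All embryos were on the FVB/NJ background, and the labels name no other mutation or treatment.

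Before a cell can copy its genome, the origin recognition complex and the licensing factors Cdc6 and Cdt1 load the MCM ring onto DNA. In S phase Mcm10, Cdc45 and the GINS complex turn the ring into an active helicase, the polymerases copy both strands around the Pcna clamp, and Lig1 and Fen1 join the Okazaki fragments of the lagging strand. Many of these genes are controlled by E2F factors and are transcribed mainly in cells that are dividing or about to divide. In the mouse cochlea, the prosensory domain leaves the cell cycle around this age as the CDK inhibitor Cdkn1b (p27Kip1) accumulates, while Kölliker's organ beside it, the epithelium in which Prdm16 is active, goes on dividing. The comparison of genotypes asks how much RNA for replication proteins the duct held without Prdm16. In such bulk samples, fewer cells in S phase and less RNA per cell cannot be told apart.

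Sequence upstream of the start sites was examined first, since E2F binding sites are a known feature of many of these genes. RefSeq promoter windows on GRCm38.p6, from 250 bases before to 50 bases after the start, were found for 38 of the 45 genes, without Mcm4, Gins1, Gins2, Gins4, Pole, Prim2 and Rfc2. RefSeq lists 2 or more starts for 6 of the 38, and the start furthest upstream was used. It need not be the start of the RNA counted, since only 31 of the 38 windows ran into a GENCODE transcript of the gene, and those of Fen1, Lig1, Mcm5 and Rpa1 lay wholly before the GENCODE gene. The RefSeq start of Mcm6 lies 41 bases before its GENCODE gene, so the Mcm6 stretch printed here ends before that gene. The E2F words TTTCCCGC, TTTCGCGC, TTTGCCGC and TTTGGCGC were searched on both strands, and 13 of the 38 windows (34.2%) held at least 1, against 2.33% of all 27025 windows and 3.93% of the 11776 windows of genes tested between null and WT. With every RefSeq start searched, a choice made after the windows were seen, 15 genes held a word (39.5%, against 4.43% of tested genes), Lig1 and Uhrf1 being added. The CCAAT box, searched on both strands, was in 63.2% of the 38 windows and in 38.2% of those of tested genes. The CHR element TTTGAA, known from genes of mitosis and likewise searched on both strands, was in 10.5% and 11.8%. The median GC content was 59.2% over the 38 windows and 60.7% over those of tested genes. To show the words in their context, the 150 bases around the RefSeq start (120 before and 30 after) are given for Mcm6, Orc1, Rfc3 and Mcm7, whose values are described below and whose printed stretch holds a word, and for Tk1 and Mcm10, each with a single RefSeq start and no word. They run 5′ to 3′ along the strand of the gene, and capitals mark E2F words on either strand. The stretches lie at chr1:128359676-128359825 (minus strand) for Mcm6, chr4:108579334-108579483 (plus strand) for Orc1, chr5:151651179-151651328 (minus strand) for Rfc3, chr5:138171854-138172003 (minus strand) for Mcm7, chr11:117825985-117826134 (minus strand) for Tk1 and chr2:5012762-5012911 (minus strand) for Mcm10.
Mcm6: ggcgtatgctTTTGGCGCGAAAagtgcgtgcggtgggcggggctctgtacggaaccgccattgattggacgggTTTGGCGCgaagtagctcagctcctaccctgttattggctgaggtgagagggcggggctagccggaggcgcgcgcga
Orc1: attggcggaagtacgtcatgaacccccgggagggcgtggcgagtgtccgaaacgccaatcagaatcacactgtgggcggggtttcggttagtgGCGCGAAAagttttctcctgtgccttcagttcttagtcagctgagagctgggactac
Rfc3: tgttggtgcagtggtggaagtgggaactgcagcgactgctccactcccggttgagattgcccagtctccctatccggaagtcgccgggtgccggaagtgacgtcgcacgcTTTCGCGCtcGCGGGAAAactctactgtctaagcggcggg
Mcm7: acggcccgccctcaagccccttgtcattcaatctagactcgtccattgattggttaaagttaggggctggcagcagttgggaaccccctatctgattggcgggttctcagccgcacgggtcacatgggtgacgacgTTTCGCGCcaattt
Tk1: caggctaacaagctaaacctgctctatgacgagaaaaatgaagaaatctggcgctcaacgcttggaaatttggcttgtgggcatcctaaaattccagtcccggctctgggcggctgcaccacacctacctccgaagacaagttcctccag
Mcm10: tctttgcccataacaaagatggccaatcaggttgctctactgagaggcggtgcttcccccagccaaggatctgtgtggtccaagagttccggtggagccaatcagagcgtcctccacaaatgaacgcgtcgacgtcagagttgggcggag
In Mcm6 the 2 words farthest from the start, at bases -110 and -106, overlap each other, and another begins at -47. The Orc1 word begins at base -27, the Rfc3 words at -10 and at the start itself, and Mcm7 holds 1 word at base 17 after the start and another at -165, outside the printed stretch. A word is a match of letters and not a measured binding site.

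Total counts per library ranged from 24095322 to 30819118, and all 45 genes had enough counts to be tested in every comparison. The targeted gene checked the labels, with Prdm16 at 184 to 225 CPM (counts scaled to a common library size with TMM factors) in WT, 123 to 151 CPM in heterozygotes and 19.1 to 27.4 CPM in null embryos. Markers of the duct epithelium were detected in every library, and the summed level of 10 Kölliker's organ markers was 3888 to 4810 CPM in WT, 3638 to 4501 CPM in heterozygotes and 2021 to 2308 CPM in null embryos. Prdm16 is itself among the 10, and Tecta was the largest part, at 2602 to 3232 CPM in WT and 1393 to 1642 CPM in null embryos. Null values lay wholly below WT values for 9 of the 10 (9.25% of all genes), all but Tmod1. Mesenchyme markers varied within genotypes. Their 11 genes summed to 601, 1097 and 122 CPM in WT 1, 2 and 3, to 63.7, 109 and 81.0 CPM in heterozygotes 1, 2 and 3, and to 75.0, 44.4 and 1756 CPM in null 1, 2 and 3. Endothelial markers were likewise higher in WT 1, WT 2 and null 3, at 86.1, 69.9 and 49.3 CPM, than in the other 6 libraries (4.55 to 8.67 CPM). Results below are therefore also given without WT 1, WT 2 and null 3, a choice made after the libraries were seen. That fit holds the remaining libraries of all 3 genotypes together and tests 19133 genes. Its single WT embryo, WT 3, is assumed to vary like the others, so the spread comes from the null and heterozygote embryos kept. WT 3 is also the WT embryo with the lowest median level of the replication genes, described below. Libraries of a genotype were not repeats of each other, since the chi-square of every such pair was 5.70 or more per gene.

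In null against WT cochlear ducts, the replication genes leaned lower, and none passed the threshold of an edgeR adjusted p under 0.05 with an absolute log2 fold change over 0.5. Of the 17168 genes tested, 1.71% were called at this threshold, and 0 of the 45 replication genes were. DESeq2 also called 0 of them at both thresholds (3.29% of all genes in DESeq2). At an unadjusted edgeR p under 0.05, 8 of the 45 were lower (17.8%, against 5.76% of all genes) and 0 were higher (6.48% of all genes). Null values lay wholly below WT values for 11 genes (24.4%, against 9.25% of all genes) and wholly above for 0 (9.70% of all genes). Negative log2 fold changes were found for 38 genes (48.1% of all genes) and positive ones for 7, with a median of -0.13 against 0.01 over all genes. It ranged from -0.67 for Fen1 to 0.48 for Orc1. Without WT 1, WT 2 and null 3, edgeR gave 2 lower genes (Tk1 and Uhrf1, 5.68% of all genes) and 1 higher gene (Gins4, 4.89% of all genes) at an unadjusted p under 0.05, so the share of lower genes was no longer above that of all genes. The median was then -0.10, with 28 negative (47% of all genes) and 17 positive values. Only 2 genes were lower at an unadjusted p under 0.05 without WT 2 (3.48% of all genes), and 13 were without null 3 (9.21% of all genes).

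**Figure D1:**
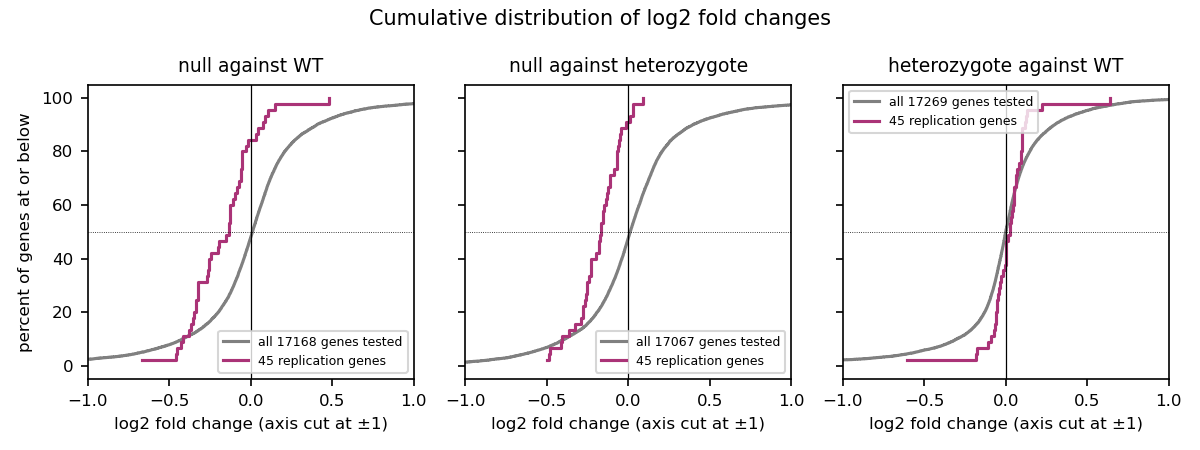
Percent of genes (vertical axis) at or below each log2 fold change (horizontal axis) for all genes tested and for the 45 replication genes, in the 3 comparisons of genotypes. The curve of the replication genes lies to the left of that of all genes in both comparisons with null embryos, with medians of -0.13 and -0.17, and near it in heterozygote against WT (median 0.03).

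Against heterozygotes, null ducts gave values of the same kind. The null libraries are the ones used above, so the comparisons are not independent. In edgeR and in DESeq2 0 of the 45 genes were called (0.615% of all 17067 genes tested in edgeR and 1.89% in DESeq2). By edgeR 9 were lower at an unadjusted p under 0.05 (20%, against 5.25% of all genes) and 0 were higher (6.14%). The 9 were Uhrf1, Pole, Lig1, Tk1, Rfc5, Mcm10, Pold1, Chaf1a and Pola2. Null values lay wholly below heterozygote values for 11 genes (24.4%, against 9.04% of all genes) and wholly above for 0 (9.08%). The median log2 fold change was -0.17, with 41 values negative (47.7% of all genes) and 4 positive. Without WT 1, WT 2 and null 3, edgeR called Uhrf1 (1.05% of all genes were called in that fit) and gave 16 genes lower at an unadjusted p under 0.05 (5.97% of all genes). WT libraries are not part of this comparison, so that fit took only null 3 out of it. The mean of null embryos was the lowest of the 3 genotypes for 38 of the 45 genes (84.4%, against 36.1% of 17797 genes).

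In heterozygote against WT ducts, the values of these genes lay on both sides of 0. In edgeR and in DESeq2 0 of the 45 were called (0.151% of all 17269 genes tested in edgeR and 1.75% in DESeq2). At an unadjusted p under 0.05, Orc1 and Rfc3 were higher in heterozygotes (5.80% of all genes) and 0 genes were lower (7.33%). Heterozygote values lay wholly above WT values for Orc1, Rfc3 and Pole2 (8.91% of all genes) and wholly below for Fen1 (9.07%). The median log2 fold change was 0.03, with 27 values positive and 18 negative (50% of all genes were negative), and the 95% interval of the fold change lay within 0.5 either way on the log2 scale for 43 of the 45 genes, all but Orc1 and Fen1. Without WT 1, WT 2 and null 3 the median was 0.17, with 40 values positive and 5 negative (48.2% of all genes were negative).

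**Figure D2:**
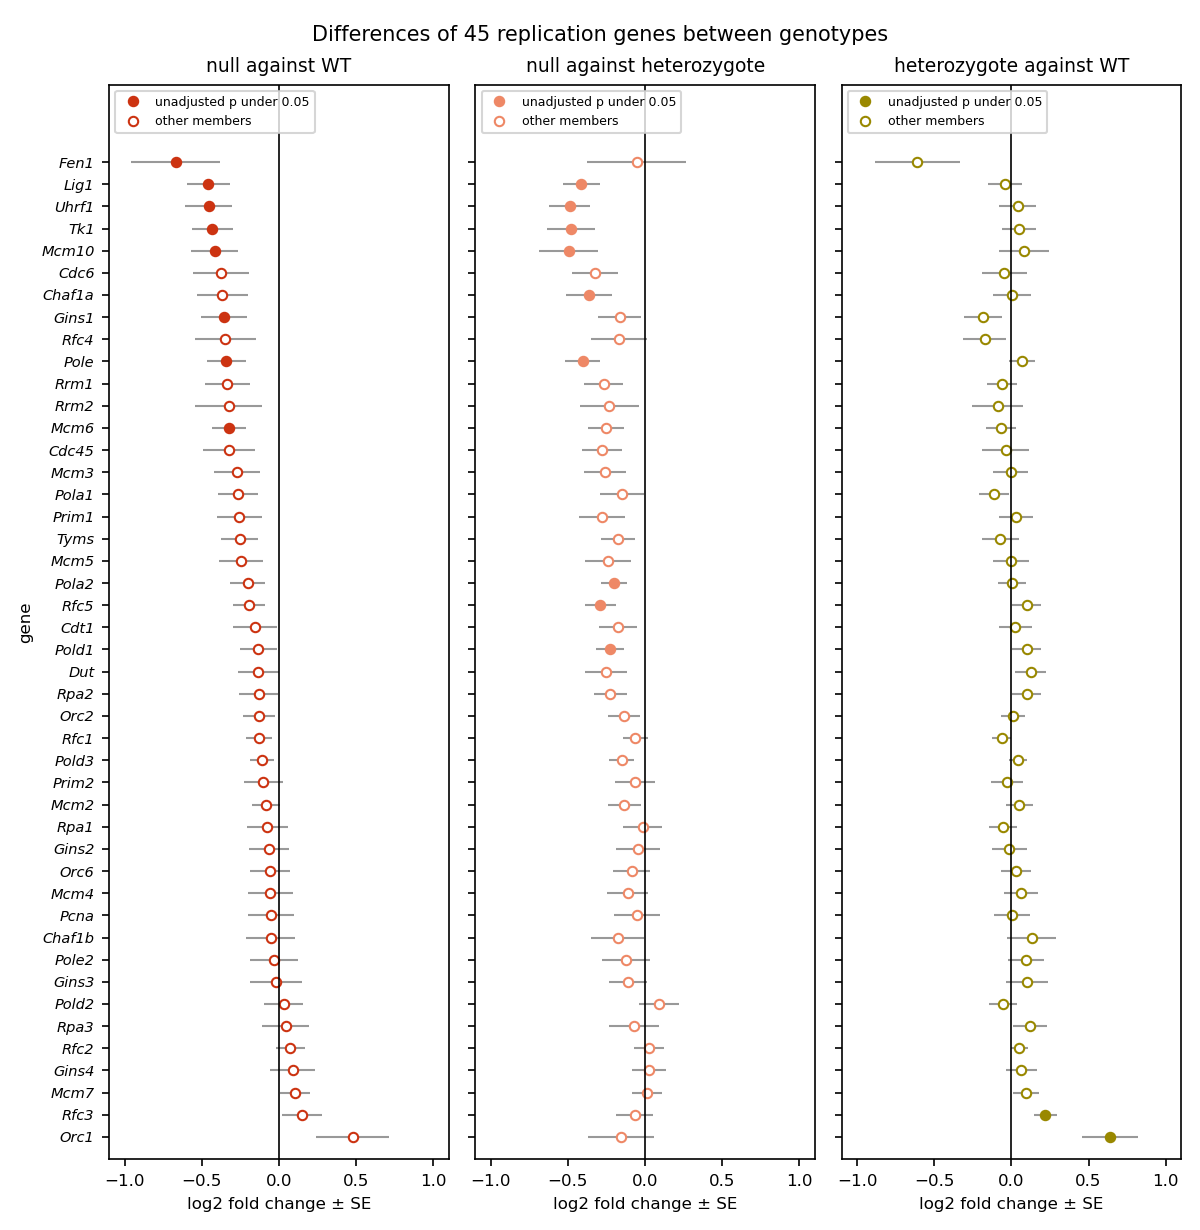
Log2 fold change and its standard error (horizontal axis) of each of the 45 replication genes (vertical axis, ordered by null against WT) in the 3 comparisons, with filled points for an unadjusted edgeR p under 0.05. All 8 filled points of null against WT and all 9 of null against heterozygote lie below 0, and both filled points of heterozygote against WT lie above it.

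Among the 5 genes of origin recognition and licensing, 0 had an unadjusted p under 0.05 between null and WT. The median log2 fold change was -0.13, and 0.01 without WT 1, WT 2 and null 3. Orc1, the largest subunit of the origin recognition complex (chr4:108579423-108614833 on mm10, plus strand), was at 3.34, 3.65 and 2.65 CPM in WT 1, 2 and 3, at 4.82, 5.62 and 4.54 CPM in heterozygotes, and at 4.67, 3.52 and 5.28 CPM in null embryos. All 3 heterozygotes were above all 3 WT embryos, and null embryo 2 lay within the WT range. The log2 fold change of Orc1 was 0.64 in heterozygotes against WT (SE 0.183, edgeR adjusted p = 0.157) and 0.48 in null against WT (SE 0.235, edgeR adjusted p = 0.473). These values rest on 78 to 156 reads per library, and 376 of the 3479 exon bases of Orc1 also belong to Gm12743. Cdc6, which loads the MCM ring (chr11:98907801-98923940, plus strand), was at 14.6, 19.1 and 13.2 CPM in WT, 13.4, 15.7 and 16.3 CPM in heterozygotes and 12.9, 10.2 and 13.1 CPM in null embryos. Null values were the 3 lowest of the 9, with null 3 just below WT 3. Against WT this was a log2 fold change of -0.38 (SE 0.181, edgeR adjusted p = 0.461), and it was -0.20 without WT 2 and -0.18 without WT 1, WT 2 and null 3. The other 3 genes, the subunits Orc2 and Orc6 and the licensing factor Cdt1, had values from -0.15 to -0.06.

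Of the 6 subunits of the MCM ring, the helicase that unwinds DNA at the fork, 5 had a negative log2 fold change in null against WT. Mcm6 (chr1:128331590-128359664, minus strand) was at 120, 136 and 109 CPM in WT, 99.7, 127 and 122 CPM in heterozygotes and 88.6, 95.1 and 109 CPM in null embryos. The null values lay below the WT values, although null 3 (108.9 CPM) and WT 3 (109 CPM) were nearly equal. This gave log2 fold changes of -0.33 against WT (SE 0.111, edgeR adjusted p = 0.273) and -0.25 against heterozygotes (SE 0.118, edgeR adjusted p = 0.457). Mcm7 (chr5:138164583-138172422, minus strand) was the subunit with a positive value, at 76.3, 74.3 and 63.9 CPM in WT, 68.4, 83.3 and 77.2 CPM in heterozygotes and 73.98, 84.1 and 73.1 CPM in null embryos. Its genotypes overlapped, with a log2 fold change of 0.10 in null against WT (SE 0.0969, edgeR adjusted p = 0.728), which ranged from 0.03 without WT 3 to 0.31 without WT 1, WT 2 and null 3. Other subunits varied as much within genotypes as between them, as with Mcm4, at 88.9, 103 and 75.9 CPM in WT against 84.4, 73.5 and 101 CPM in null embryos. Mcm2, Mcm3, Mcm4 and Mcm5 had log2 fold changes of -0.09, -0.27, -0.06 and -0.25 against WT, with overlapping groups.

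The helicase activation genes gave a median log2 fold change of -0.19 in null against WT, with 2 of 6 at an unadjusted p under 0.05, Mcm10 and Gins1. Without WT 1, WT 2 and null 3 the 6 values lay on both sides of 0, from -0.30 for Gins1 to 0.39 for Gins4. Mcm10, needed to start unwinding (chr2:4989714-5012791, minus strand), was at 22.2, 22.5 and 17.8 CPM in WT, 18.03, 28.01 and 20.1 CPM in heterozygotes and 17.1, 13.1 and 16.7 CPM in null embryos. All null values were below all others, and heterozygote 2 stood above the rest. Mcm10 thus had log2 fold changes of -0.42 against WT (SE 0.153, edgeR adjusted p = 0.313) and -0.50 against heterozygotes (SE 0.190, edgeR adjusted p = 0.379). Without WT 1, WT 2 and null 3 the value against WT was -0.24 (edgeR adjusted p = 0.787), and without heterozygote 2 the value against heterozygotes was -0.29 (edgeR adjusted p = 0.813). Gins1, a subunit of the 4-part GINS complex, had a log2 fold change of -0.35 against WT (SE 0.148, edgeR adjusted p = 0.393) with separated groups. The other GINS subunits were at -0.06 for Gins2, -0.02 for Gins3 and 0.09 for Gins4, with overlapping groups. Their intervals overlapped that of Gins1 (-0.70 to -0.01), and the difference between subunits was not tested. Cdc45, the partner of GINS at the ring, was at -0.32 with overlapping groups. Gins2 shares 2758 of its 4097 exon bases with Gse1 on the opposite strand, and reads from such bases cannot be told apart without strand.

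The replicative polymerases and primase gave negative log2 fold changes for 8 of 9 genes in null against WT. Pole, the catalytic subunit of the leading strand polymerase (chr5:110286306-110337474, plus strand), was at 67.3, 78.1 and 61.9 CPM in WT, 73.98, 76.8 and 67.0 CPM in heterozygotes and 57.0, 46.7 and 60.8 CPM in null embryos. Every null embryo lay below every WT and heterozygote embryo. Its log2 fold change was -0.34 against WT (SE 0.128, edgeR adjusted p = 0.329) and -0.41 against heterozygotes (SE 0.114, edgeR adjusted p = 0.233). The second polymerase epsilon gene, Pole2, was almost level across WT embryos (7.33 to 7.45 CPM) and had a log2 fold change of -0.03 in null against WT, with a 95% interval from -0.40 to 0.33. Against heterozygotes, Pold1, the catalytic subunit of polymerase delta, and Pola2, the second subunit of polymerase alpha, were also below an unadjusted p of 0.05, with log2 fold changes of -0.23 and -0.20. In null against WT, Pola1 and Prim1, which make the primers of both strands together with Pola2 and Prim2, had log2 fold changes of -0.26 each. Prim2 was at -0.10, Pold3 at -0.11 and Pold2 at 0.03.

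The clamp and its loader had the smallest shift of the 8 roles in null against WT with all 6 libraries. Their median log2 fold change was -0.09, with 0 of 6 genes at an unadjusted p under 0.05. This place among the roles did not hold without WT 1, WT 2 and null 3. Rfc5, a loader subunit (chr5:117378103-117389047, minus strand), was at 30.1, 35.7 and 32.4 CPM in WT, 31.3, 37.2 and 36.7 CPM in heterozygotes and 27.5, 29.9 and 28.7 CPM in null embryos. Null values were the 3 lowest of the 9. For Rfc5 the log2 fold change was -0.20 against WT (SE 0.104, edgeR adjusted p = 0.513) and -0.29 against heterozygotes (SE 0.101, edgeR adjusted p = 0.347), and the value against WT was -0.12 without WT 2. Rfc3, another subunit of the same loader (chr5:151642756-151651242, minus strand), was at 28.1, 30.01 and 26.9 CPM in WT, 32.4, 34.3 and 32.4 CPM in heterozygotes and 27.8, 37.1 and 29.6 CPM in null embryos. Heterozygotes were above WT in each embryo, and null embryos spread over both ranges. The log2 fold change of Rfc3 was 0.22 in heterozygotes against WT (SE 0.0754, edgeR adjusted p = 0.235) and 0.15 in null against WT (SE 0.131, edgeR adjusted p = 0.711), the latter ranging from 0.02 without null 2 to 0.28 without WT 1, WT 2 and null 3. Pcna, the clamp itself and a common marker of S phase, was at 39.4, 43.1 and 33.7 CPM in WT and at 31.4, 36.7 and 44.2 CPM in null embryos. Its groups overlapped fully, with a log2 fold change of -0.05 and a 95% interval from -0.40 to 0.29. Pcna shares 51.5% of its transcript with the near-identical pseudogene Pcna-ps2, and how reads that fit both were counted is not given in the sources used here. Rfc1, Rfc2 and Rfc4 were at -0.13, 0.07 and -0.35.

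Of the 5 genes that handle Okazaki fragments and single-stranded DNA, Lig1 and Fen1 were below an unadjusted p of 0.05 in null against WT. Lig1, the ligase that seals Okazaki fragments (chr7:13277283-13311433, plus strand), was at 112, 141 and 105 CPM in WT, 104, 131 and 114 CPM in heterozygotes and 74.1, 92.9 and 94.4 CPM in null embryos. All 3 null embryos lay below all 6 others. The mean in null embryos was 72.8% of that in WT, a log2 fold change of -0.46 (SE 0.139, edgeR adjusted p = 0.213), and the value was -0.41 against heterozygotes (SE 0.122, edgeR adjusted p = 0.267). In DESeq2 the Lig1 value against WT was -0.46 with an adjusted p of 0.0368, the only one of the 45 genes under 0.05 in that comparison (4.15% of all genes in DESeq2), below the fold threshold. With 1 embryo left out at a time, the unadjusted edgeR p of Lig1 stayed under 0.05 in all 6 cases, with log2 fold changes from -0.54 to -0.31. It did not without WT 1, WT 2 and null 3 together, where the value was -0.32 (edgeR adjusted p = 0.570). Fen1, the nuclease that trims the fragments (chr19:10199132-10204169, minus strand), was at 1.63, 1.29 and 1.63 CPM in WT, 0.763, 1.046 and 1.17 CPM in heterozygotes and 0.867, 1.195 and 0.796 CPM in null embryos. Null and heterozygote values lay alike below WT, with log2 fold changes against WT of -0.67 (SE 0.288, edgeR adjusted p = 0.409) and -0.61 (SE 0.274, edgeR adjusted p = 0.386). These levels rest on 19 to 48 reads per library, and 1909 of the 2422 exon bases of Fen1 are shared with Gm10143 on the opposite strand. The single strand binding subunits Rpa1, Rpa2 and Rpa3 had log2 fold changes of -0.08, -0.13 and 0.04 in null against WT.

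All 5 nucleotide supply genes had negative log2 fold changes in both comparisons with null embryos, with medians of -0.33 against WT and -0.25 against heterozygotes. Tk1, the thymidine kinase of the S phase salvage route (chr11:117815526-117826092, minus strand), was at 24.3, 23.5 and 21.9 CPM in WT, 21.8, 28.2 and 22.3 CPM in heterozygotes and 17.0, 15.0 and 19.9 CPM in null embryos. The null values were the 3 lowest, and the WT values were close together. For Tk1 the log2 fold change was -0.43 against WT (SE 0.131, edgeR adjusted p = 0.214) and -0.48 against heterozygotes (SE 0.154, edgeR adjusted p = 0.306). Without WT 1, WT 2 and null 3 the value against WT was -0.45 (edgeR adjusted p = 0.446), and the unadjusted p stayed under 0.05 there and with any 1 of the 6 embryos left out. Rrm1 and Rrm2, the subunits of ribonucleotide reductase, were at -0.34 and -0.33 against WT with overlapping groups, and at -0.20 and -0.12 without WT 2 and -0.47 and -0.55 without null 3. The highest Rrm2 values came from all 3 genotypes, at 47.4 CPM in WT 2, 40.3 CPM in heterozygote 2 and 38.8 CPM in null 3. Tyms, which makes thymidylate, was at -0.26 with separated groups, and Dut, which removes dUTP, at -0.13.

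The 3 genes of chromatin assembly and maintenance had the largest median shift of the 8 roles in null against WT, -0.37, with all 6 libraries. Without WT 1, WT 2 and null 3 the median was -0.27, beside -0.28 for nucleotide supply. Uhrf1, which recruits the maintenance DNA methyltransferase to newly copied DNA (chr17:56303321-56323486, plus strand), was at 74.8, 94.2 and 67.3 CPM in WT, 71.1, 90.6 and 81.2 CPM in heterozygotes and 52.9, 52.4 and 67.9 CPM in null embryos. Null 1 and null 2 lay well below all other embryos, and null 3 was level with WT 3. The log2 fold change was -0.45 against WT (SE 0.153, edgeR adjusted p = 0.263) and -0.49 against heterozygotes (SE 0.133, edgeR adjusted p = 0.214). Against WT it was -0.30 without WT 2 (edgeR adjusted p = 0.716) and -0.35 without WT 1, WT 2 and null 3 (edgeR adjusted p = 0.457). Uhrf1 was the only one of the 45 genes to pass the threshold in an alternative of the edgeR fit. Without null 3 its value against heterozygotes was -0.62 (edgeR adjusted p = 0.0434, with 1.03% of all genes called). It was also -0.62 without WT 1, WT 2 and null 3, but this is no separate check. Both fits compare null 1 and null 2 with the same heterozygotes. DESeq2 gave -0.49 against heterozygotes with an adjusted p of 0.0268 on all 6 libraries, where 2.31% of all genes had an adjusted p under 0.05. A stretch of 44.3% of the Uhrf1 transcript has a near-identical copy in Gm5648. The chromatin assembly factor subunits Chaf1a and Chaf1b had log2 fold changes of -0.37 and -0.05 against WT, and 4648 of the 8854 exon bases of Chaf1a are shared with Ubxn6 on the opposite strand.

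**Figure D3:**
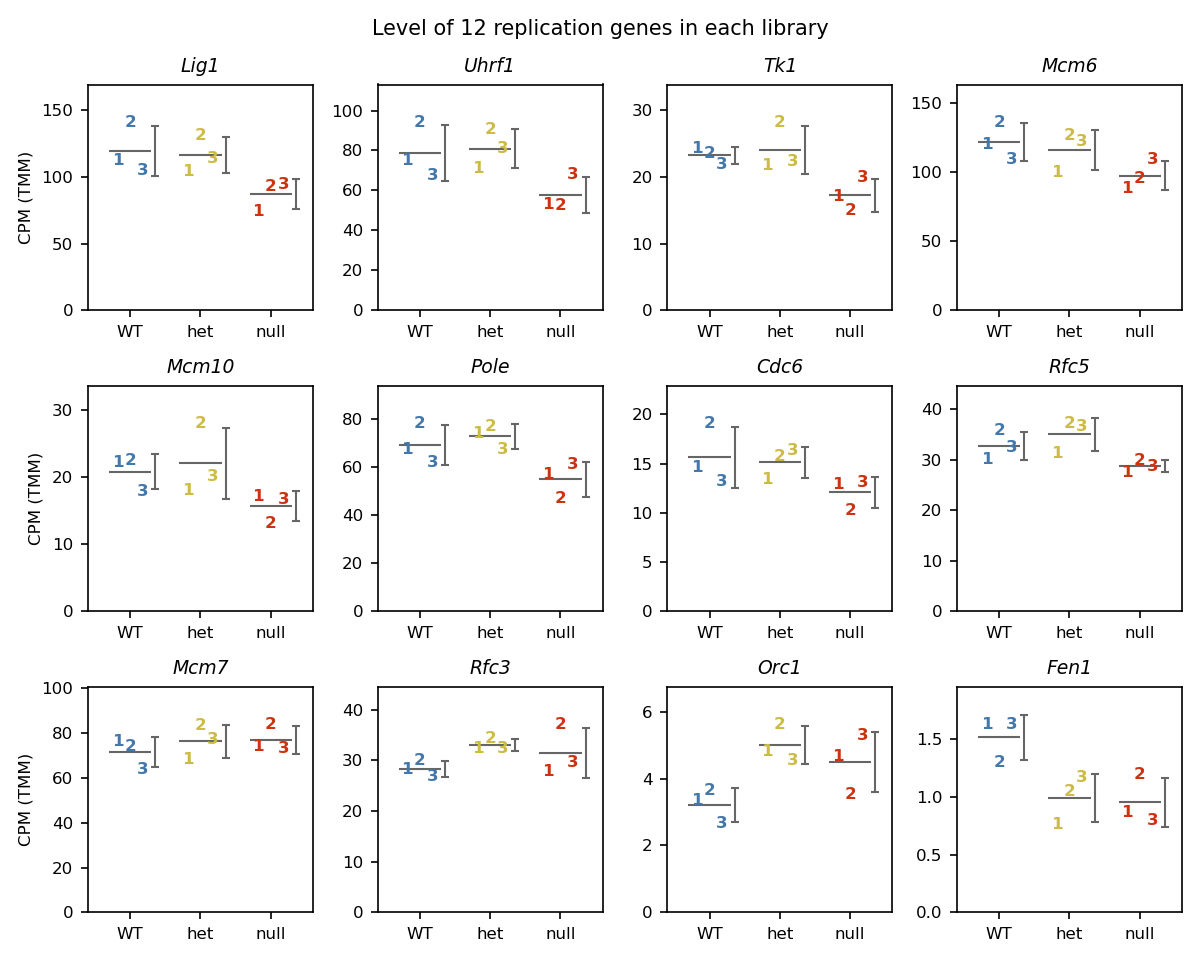
Level (CPM, TMM-scaled, axes from 0) of 12 replication genes in each library, with digits for the embryo number, horizontal lines for the mean and bars for the SD (n = 3). Null values lie below every WT and heterozygote value for Lig1, Tk1, Mcm10, Pole, Cdc6 and Rfc5, and genotypes overlap for Mcm7, while Orc1 and Rfc3 are higher in heterozygotes than in WT.

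The replication genes varied together from library to library, also within a genotype. Each gene's log2 CPM was set against its mean over 9 libraries, and the median of the 45 deviations was 0.03, 0.20 and -0.07 in WT 1, 2 and 3, -0.08, 0.18 and 0.08 in heterozygotes, and -0.20, -0.14 and -0.03 in null embryos. WT 2 held the highest value for 21 of the 45 genes and heterozygote 2 for 11, while null 1 held the lowest for 19 and null 2 for 15. Null 3 lay slightly above WT 3 and heterozygote 1, and null 1 and null 2 lay below them. After the genotype means were removed, the median pairwise correlation among the 45 genes was 0.57 (990 pairs, 9 libraries, which share depth and dissection). The correlation with the mean of the 45 genes was highest for Mcm6 (0.979), Mcm5 (0.967), Chaf1b (0.959), Mcm3 (0.956) and Uhrf1 (0.956), and negative for Pole2 (-0.20) and Fen1 (-0.01). Each gene is part of that mean, so these are descriptions. Of the 3 libraries with high mesenchyme markers, WT 2 had the highest median deviation, WT 1 a middle one and null 3 the highest of the null embryos. Heterozygote 2, with 109 CPM of mesenchyme markers, was nearly as high as WT 2. Besides Kölliker's organ, the marker sums of the prosensory domain, roof, outer sulcus and melanocytes did not overlap between null and WT. Those of the roof were 8270 to 9692 CPM in WT, 9884 to 10430 CPM in heterozygotes and 11110 to 14510 CPM in null embryos, those of the outer sulcus 1338 to 1521, 1407 to 1692 and 1540 to 2170 CPM, and those of melanocytes 62.3 to 144, 28.3 to 48.6 and 19.1 to 51.3 CPM. Single genes made up large parts of these sums, as did Oc90 in the roof (7249 to 8463 CPM in WT, 10040 to 13380 CPM in null embryos). Taken singly, null values lay wholly above WT values for 5 of 9 prosensory, 5 of 9 roof and 2 of 6 outer sulcus markers (9.70% of all genes). They lay wholly below for 5 of 6 melanocyte markers (9.25% of all genes), and 2 roof markers had a negative log2 fold change. The part of tissue makeup in the values of the replication genes was not tested.

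**Figure D4:**
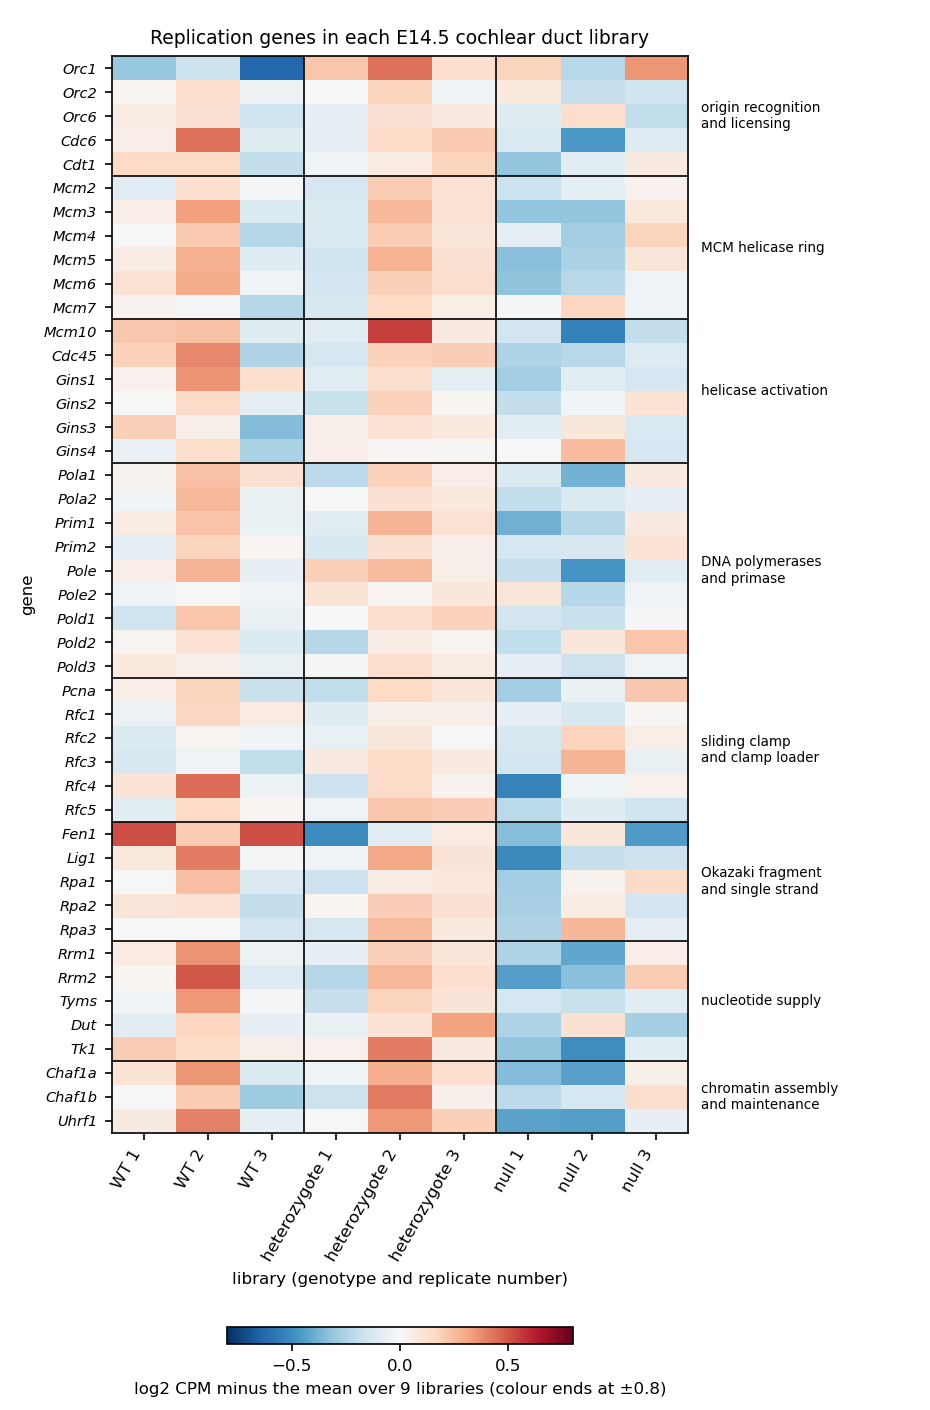
Log2 CPM of the 45 replication genes minus each gene's mean over 9 libraries (colour, blue low and red high), with genes in rows by role and libraries in columns by genotype. Most rows are red in WT 2 and heterozygote 2, which hold the highest value of 21 and 11 genes, and blue in null 1 and null 2, which hold the lowest value of 19 and 15.

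Levels per kilobase of exon differed widely among the genes. In WT, Lig1 was highest at 27.95 ± 4.46 CPM per kilobase (SD, n = 3), followed by Dut (26.8 ± 2.74), Mcm3 (26.8 ± 4.19) and Mcm6 (26.1 ± 2.93), and these neighbours did not differ beyond their spread. Lowest were Fen1 (0.627 ± 0.0798), Orc1 (0.923 ± 0.147), Pole2 (2.56 ± 0.0242) and Mcm10 (2.71 ± 0.339). Of these only Pole2 and Mcm10 had overlapping ranges of mean ± SD. Subunits that act in equal numbers in the MCM ring were at 16.2 to 26.8 CPM per kilobase, with Mcm7 the lowest. In null embryos Lig1 was at 20.4 ± 2.66 CPM per kilobase, below Mcm3 (22.3 ± 3.65) and Mcm6 (20.9 ± 2.22). Exon length here is the union of all annotated exons of a gene, which understates the level of genes with many alternative exons.

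The median log2 fold change in null against WT was -0.13 over the 13 genes with an E2F word and -0.20 over the 25 without, and -0.15 and -0.20 over 15 and 23 genes when every RefSeq start was searched. Negative values were found for 10 of the 13 and 23 of the 25. Orc1, Rfc3 and Mcm7, the highest of the 45, held a word, and Cdc6, Mcm6, Mcm3 and Pola1, at -0.38 to -0.26, did too. The lowest values, from Fen1 at -0.67 through Lig1, Uhrf1 and Tk1 to Mcm10 at -0.42, belonged to genes with no word at the start used, although Lig1 and Uhrf1 held one at another start. A window without a word says only that these letters are not in these bases.

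Other genes of the same processes were read from lists of their own. Of 30 further genes of origin firing and the replisome, 10 were lower in null against WT at an unadjusted edgeR p under 0.05 (5.76% of all genes), 0 were higher (6.48%) and 0 were called (1.71%), with a median log2 fold change of -0.20. The number of lower genes was 2 without WT 2 (3.48% of all genes) and 1 without WT 1, WT 2 and null 3 (5.68%), with medians of -0.11 and -0.10. The smallest p belonged to Exo1, an exonuclease of replication and mismatch repair, at 22.7, 26.99 and 20.5 CPM in WT and 15.4, 14.3 and 17.9 CPM in null embryos (log2 fold change -0.56, SE 0.146, edgeR adjusted p = 0.137). Of 20 regulators of the G1/S transition, 4 were lower at an unadjusted p under 0.05 (5.76% of all genes), and 0 were without WT 2 (3.48%). The median was -0.12, -0.21 without null 1, -0.07 without null 2 and -0.13 without WT 1, WT 2 and null 3. Cdk2, the kinase that drives S phase with cyclins E and A, was at 86.2, 94.0 and 87.2 CPM in WT and 76.7, 73.2 and 76.6 CPM in null embryos (log2 fold change -0.24, SE 0.0723, edgeR adjusted p = 0.200). The groups of Exo1 and of Cdk2 did not overlap. Among 15 further nucleotide supply genes 2 were lower, against the same 5.76% of all genes, and 1 was without WT 2 (3.48%). Their median was -0.04, and 0.004 without WT 2. The smallest p was that of Shmt1 of folate metabolism, at 16.2, 21.03 and 16.3 CPM in WT and 11.6, 10.4 and 13.4 CPM in null embryos without overlap (log2 fold change -0.61, SE 0.161, edgeR adjusted p = 0.148). Of 12 further genes of chromatin replication 0 were lower or higher, and the smallest p was that of Dnmt1, the maintenance DNA methyltransferase, at 256, 284 and 240.2 CPM in WT and 225, 202.5 and 257 CPM in null embryos with overlap (log2 fold change -0.19, SE 0.108, edgeR adjusted p = 0.534).

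Genes of mitosis were low in the same libraries as the replication genes, with a median further from 0. All 28 had a negative log2 fold change in null against WT, with a median of -0.47, and 21 of 28 were lower at an unadjusted edgeR p under 0.05 (5.76% of all genes), although 0 were called. Without WT 1, WT 2 and null 3 all 28 were again negative, with a median of -0.44 and 18 at an unadjusted p under 0.05 (5.68% of all genes). This number was 9 without WT 2, where 3.48% of all genes were lower at that p, and 25 without null 3, where 9.21% were. Without null 3, Foxm1, Kif11, Prc1, Bub1b and Espl1 were called (edgeR adjusted p 0.0239 to 0.0494), as were 2.51% of all genes against 1.71% with all 6 libraries. Cenpa, the histone of centromeres, was at 69.6, 82.0 and 67.1 CPM in WT, 71.7, 86.2 and 75.5 CPM in heterozygotes and 52.9, 51.6 and 59.2 CPM in null embryos (log2 fold change against WT -0.42, SE 0.105, edgeR adjusted p = 0.121). The highest values again came from WT 2 and heterozygote 2, and all null embryos lay below the others. The difference between the mitosis and replication medians was not tested. Of 6 CDK inhibitor genes tested, which hold cells out of S phase, 4 were higher in null against WT at an unadjusted p under 0.05 (6.48% of all genes), and 2 without WT 1, WT 2 and null 3 (4.89%). Cdkn1b was the 1 gene called, at 256, 233 and 251 CPM in WT, 280, 285 and 306 CPM in heterozygotes and 369, 377 and 319 CPM in null embryos. It rose by 0.52 on the log2 scale against WT (SE 0.0879, edgeR adjusted p = 0.0304). Heterozygotes lay between both groups, 0.23 above WT on the log2 scale (SE 0.0512, edgeR adjusted p = 0.0800). Cdkn1c, the inhibitor p57Kip2, had the smallest p of the 6 in that comparison and lay lower in heterozygotes, at 174.8, 174.7 and 187 CPM against 224.5, 233 and 216.5 CPM in WT (log2 fold change -0.33, SE 0.0462, edgeR adjusted p = 0.0363), within the fold threshold, and spread from 149 to 375 CPM in null embryos. The Cdkn1b call was lost with the replicate block (edgeR adjusted p = 0.118), without WT 1, WT 2 and null 3 together (0.0599), and with each of WT 1, WT 2, WT 3, null 1 and null 2 left out (adjusted p 0.0543 to 0.197), while its log2 fold change stayed between 0.48 and 0.60. Without null 1, Cdkn1a, the CDK inhibitor p21, was called and Cdkn1b was not (Cdkn1a log2 fold change 0.59, edgeR adjusted p = 0.0425). Prosensory markers, a group in which Cdkn1b is known to be high, summed to 823 to 898 CPM in WT, 988 to 1006 CPM in heterozygotes and 916 to 1177 CPM in null embryos. Every null sum was above every WT sum, with Jag1 the largest part, at 385 to 419 CPM in WT and 446.5 to 600 CPM in null embryos. Of the 9 markers, 5 had null values wholly above WT values (9.70% of all genes), while Hey2, Lgr5, Sox21 and Ntf3 overlapped. The part of these markers in the Cdkn1b value was not tested.

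**Figure D5:**
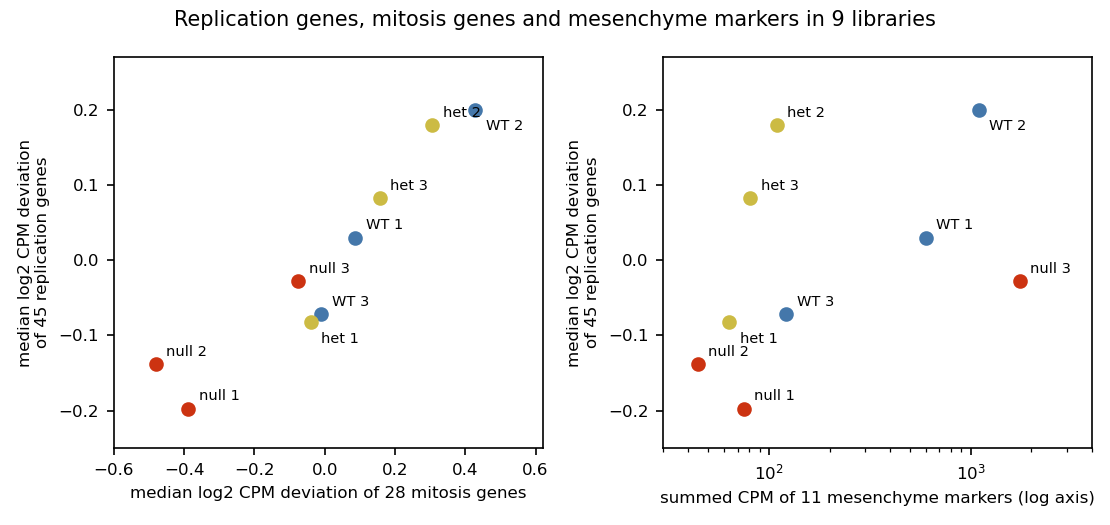
Median log2 CPM deviation of the 45 replication genes (vertical axis) against that of 28 mitosis genes (left) and against the summed CPM of 11 mesenchyme markers (right, log axis), with 1 point per library. WT 2 and heterozygote 2 are highest and null 1 and null 2 lowest on both axes of the left panel, while null 3, with the most mesenchyme marker RNA (1756 CPM), lies near WT 3 and heterozygote 1.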

How the data were processed

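RNA was measured in 9 libraries, 3 per genotype. The authors sequenced TruSeq mRNA libraries as single reads of 50 bases, aligned them to mm10 with STAR, and deposited raw counts per Ensembl gene. The submitters' processing notes also name cutadapt 1.13, HTSeq 0.6.1p1 and DESeq2. The strand setting and annotation release are not given in the sources used here. All 37 mitochondrial genes hold 0 counts.

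Names, positions and exon lengths came from GENCODE vM21, with symbols for 54079 of 54232 genes. Samples were grouped by labelled genotype, and genotypes were compared in pairs, with the 6 libraries of the pair, in edgeR 4.0.16 under R 4.3.3 (TMM, filterByExpr with a minimum count of 10, quasi-likelihood test, Benjamini-Hochberg adjustment over all genes). Called genes had an adjusted p under 0.05 and a log2 fold change beyond 0.5 in either direction. CPM values are TMM-scaled. Log2 CPM used a prior count of 2. Totals of 24095322 to 30819118 counts and 3 embryos per genotype set the precision. Near-identical copies were sought with BLAST 2.17.0+ at 98% identity over 50 bases. The procedure was tested on simulated counts.

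The 45 genes and all other lists were chosen with earlier results of these data known. Values per library are given for the gene with the smallest p between null and WT in each role, the 3 lowest and 3 highest log2 fold changes, the smallest p in the other comparisons, and any called gene. In the related lists they are given for called genes and the smallest p. Other genes are named without that rule. Alternatives were DESeq2 1.42.0, limma-voom (limma 3.58.1), RLE or library totals alone, no filter or a mean count over 100, a joint fit of all 9 libraries, a block for the replicate number, no fold threshold, and leaving out each embryo. DESeq2 without a fold threshold and leaving out 3 libraries were added after seeing the data. The fit that left out 3 libraries held the remaining libraries of all 3 genotypes, not those of a pair.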

Additional observations from a re-analysis of the deposited data

How the results depend on the processing

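In null against WT, the log2 fold changes of Cdc6, Fen1, Lig1, Mcm10, Mcm6, Mcm7, Orc1, Pole, Rfc3, Rfc5, Tk1, Uhrf1, Cdkn1b and Prdm16 kept their sign in each alternative run, and 0 of the 45 genes were called between null and WT in each alternative with both thresholds. With DESeq2 and no fold threshold, 1 gene passed in null against WT (Lig1) and 1 in null against heterozygote (Uhrf1). In null against heterozygote, leaving out each embryo gave 0 to 1 called, which was Uhrf1 at -0.62 without null 3. Leaving out WT 1, WT 2 and null 3 compares the same null and heterozygote libraries, and also gave -0.62. The number of genes with an unadjusted p under 0.05 depended on single embryos. Leaving out each embryo gave 2 to 13 in null against WT (2 without WT 2, 4 without null 1, 5 without WT 1 and 13 without null 3), 3 to 16 in null against heterozygote (3 without heterozygote 2, 5 without heterozygote 3, 5 without null 1, 15 without heterozygote 1 and 16 without null 3) and 1 to 5 in heterozygote against WT (5 without WT 2 and 1 without WT 3 or heterozygote 2). Leaving out WT 1, WT 2 and null 3 gave 3 in null against WT and 16 in null against heterozygote, and all 9 libraries in one fit gave 1 in heterozygote against WT. The share of all genes under the same p moved too, from 7.66% to 16% in null against WT (7.66% without WT 2, 16% without null 3), from 6.67% to 20% in null against heterozygote (6.67% without heterozygote 2, 20% without null 1, 11.7% without null 3, 7.15% without heterozygote 1) and from 9.01% to 14.8% in heterozygote against WT. In null against heterozygote, share and count moved in opposite directions without heterozygote 1 and without null 1. The counts depend on which embryos are kept, and alone are no result about the 45 genes. Leaving out 1 embryo moved the log2 fold change by over 1.5 times for 37, 33 and 41 of the 45 genes in null against WT, null against heterozygote and heterozygote against WT, and changed its sign for 11, 11 and 29. The cause was not tested.

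With the replicate number as a block, 5, 8 and 2 genes had an unadjusted p under 0.05 in null against WT, null against heterozygote and heterozygote against WT, and 0 were called, with 10.4%, 9.77% and 13.6% of all genes under that p (12.2%, 11.4% and 13.1% without the block). The numbers were not taken to pair the embryos, since no comparison had all same-numbered pairs correlated above 0.1 (0.01, -0.14 and -0.28 for null and WT, 0.14, -0.12 and 0.08 for null and heterozygote, 0.20, 0.11 and -0.06 for heterozygote and WT). Counts of calls over all genes went from 293 to 133, from 105 to 52 and from 26 to 197 under the block. Counts over all genes also moved with DESeq2, to 618, 354 and 319. The median log2 fold change of the 45 genes ranged from -0.20 to -0.09 in null against WT and from -0.23 to -0.10 in null against heterozygote when each embryo was left out, and from -0.06 to 0.11 in heterozygote against WT, where its sign depended on the embryo. With 3 embryos per genotype, 19 of 45 intervals in null against WT reached below -0.5.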
